A study of Mus musculus with 13 samples.

Results

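The nuclear genes for oxidative phosphorylation were taken by their symbols: every gene of the deposited single-cell table whose symbol starts with Nduf, Cox4, Cox5, Cox6, Cox7, Cox8, Uqcr, Atp5 or Sdh. The rule found 94 of 16961 genes. By their textbook roles 43 belong to complex I, 6 to complex II, 8 to complex III, 19 to complex IV and 18 to complex V, with 80 structural subunits and 14 assembly factors, paralogs or pseudogenes. Ndufa4 and its paralog Ndufa4l2 carry a complex I name and were counted with complex IV, where the Ndufa4 protein sits. The data came from single cells of the medial amygdala, which is part of the forebrain and is known for its role in social behavior, of untreated C57BL/6J mice. The cells were dissociated with Act-Seq and captured with Drop-Seq, in which each transcript is tagged with a unique molecular identifier (UMI) and read from its 3′ end. There were 6 male and 7 female libraries, from mice of 8 or 9 weeks kept on a reversed light cycle and housed alone for at least a day. Beside sex the labels give age, which was 8 weeks for 2 of the 6 male and 1 of the 7 female libraries and 9 weeks for the others. Nothing in the labels says how many mice went into a library.

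Oxidative phosphorylation is carried out in the inner mitochondrial membrane. Complexes I and II pass electrons from NADH and succinate to ubiquinone, complex III passes them to cytochrome c, complex IV hands them to oxygen, and complex V (ATP synthase) uses the proton gradient to make ATP. Most subunits are encoded in the nucleus, several of them by small families whose members replace each other in particular tissues. The brain relies heavily on the pathway, and neurons, glia and the cells of vessels are known to differ in how far they depend on it. The core subunits that the mitochondrial genome encodes were 0 of 13 in the table, so only the nuclear share of each complex could be followed.

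The table held 43388 cells, each named with 1 of 8 classes by the authors. A minimum of 500 detected genes per cell and the removal of 281 doublets (1.13%) left 24527 cells, 1149 to 2908 per library, with 3718151 to 7874074 UMIs per library. The classes were checked against markers: neurons (3615 cells), astrocytes (6445), oligodendrocyte precursors (4163), oligodendrocytes (3887), microglia (3727), endothelial cells (1463) and mural cells (764). The class named OPC-OL (463 cells) had markers of newly formed oligodendrocytes at 14961 CPM (UMIs per 1000000 UMIs of the class in a library) and is called by that name here. The markers of a cell's own class outnumbered every other list in 84.6% of mural cells, 88.5% of neurons and 96.2% to 100% of the other classes. Median depth ran from 1544 UMIs in endothelial cells to 4061 in newly formed oligodendrocytes, and the filter on genes kept only 35.6% of the 10166 neurons. The members gave 1203778 of the 68401795 kept UMIs, with a median per cell from 20 in microglia to 74 in newly formed oligodendrocytes. In the kept cells, 19 barcodes occurred in more than 1 library.

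Promoter windows of the members often carried the motifs of factors known to drive nuclear mitochondrial genes. RefSeq windows of 300 bases (250 before the start of transcription and 50 after it, build GRCm38.p6) were matched to 78 of the 94 members, 75 by symbol and 3 by synonym, and searched on both strands. The core of the NRF-1 motif, GCGCANGCG, was found in 28.2% of members against 7.03% of all 27025 genes with a window. The ETS motif CCGGAAG, read by GABP, was in 24.4% against 9.93%, and the YY1 motif AANATGGC in 25.6% against 6.96%. For the E-box CACGTG the shares were 8.97% and 8.09%, and for the GC box GGGCGG 46.2% and 38.2%. Each motif was searched by itself, so the same bases can count for more than 1. Matches are descriptions of these letters and were not tested as sites. Stretches of 100 bases are shown for 4 members whose values in 1 class are described in the results that follow, written 5′ to 3′ on the strand of the gene, with the named motif in capitals. Cox6a1 (chr5:115349066-115349165, minus strand, 3 NRF-1 matches, of which a pair overlaps on opposite strands) passed as higher in oligodendrocytes, Ndufaf4 (chr4:24897925-24898024, plus strand, 2 overlapping NRF-1 matches) in astrocytes, Atp5j (chr16:84834985-84835084, minus strand, ETS) in endothelial cells and Cox7a2l (chr17:83514334-83514433, minus strand, GC box) in microglia.
Cox6a1: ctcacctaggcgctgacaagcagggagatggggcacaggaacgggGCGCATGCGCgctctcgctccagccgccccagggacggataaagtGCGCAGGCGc
Ndufaf4: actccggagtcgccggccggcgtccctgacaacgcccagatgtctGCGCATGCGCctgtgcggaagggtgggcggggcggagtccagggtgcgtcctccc
Atp5j: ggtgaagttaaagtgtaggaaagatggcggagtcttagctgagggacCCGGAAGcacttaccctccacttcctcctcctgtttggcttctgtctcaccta
Cox7a2l: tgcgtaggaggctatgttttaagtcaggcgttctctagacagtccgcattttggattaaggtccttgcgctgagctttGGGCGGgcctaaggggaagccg

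Mural cells, the contractile pericytes and smooth muscle cells of vessels, gave the largest share of their UMIs to the members. It was 2.70% ± 0.109 (SD over 13 libraries), with 2.58, 2.65, 2.71, 2.75, 2.83 and 2.78% in male replicates 1 to 6 and 2.50, 2.79, 2.80, 2.65, 2.80, 2.54 and 2.77% in female replicates 1 to 7. Each of these values lay above every library of every other class. Microglia, the resident immune cells, gave the smallest share, 1.19% ± 0.0733 (lowest library 1.04%, highest 1.30%), below all other classes in 13 of 13 libraries and with no overlap of ranges. The ratio of the means of mural cells and microglia was 2.28. The 6 classes between them lay closer together. Newly formed oligodendrocytes stood at 2.04% ± 0.182 (1.72 to 2.31%) and endothelial cells at 2.01% ± 0.138 (1.74 to 2.25%), and the former were the higher in only 7 of 13 libraries. Astrocytes had 1.91% ± 0.124 (1.62 to 2.06%), oligodendrocyte precursors 1.81% ± 0.106 (1.57 to 1.94%) and neurons 1.78% ± 0.208 (1.54 to 2.27%). Their order was that of the means in 12 of 13 libraries for astrocytes over precursors and in 9 of 13 for precursors over neurons, so the last pair did not separate beyond the spread of libraries. Oligodendrocytes, at 1.60% ± 0.0720 (1.41 to 1.68%), lay below astrocytes and precursors in 13 of 13 libraries and below neurons in 11 of 13. No test was made on these summed shares. Ribosomal protein transcripts had another order, with the largest shares in microglia and endothelial cells (3.51% and 3.15%) and the smallest in astrocytes (0.824%).

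**Figure D1:**
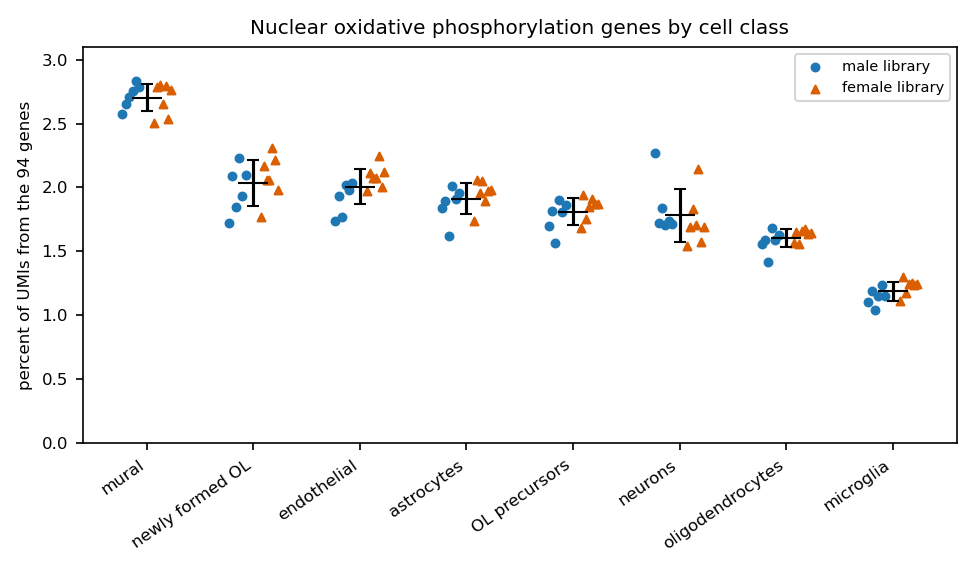
Share of UMIs from the 94 members (percent, vertical axis) in each of 8 classes, with 1 point per library (13 libraries, male and female marked apart) and bars for mean and SD. Mural cells stand alone at the top between 2.50 and 2.83%, and microglia alone at the bottom between 1.04 and 1.30%.

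The order of mural cells and microglia held in each complex. Complex I, which takes electrons from NADH, gave 0.962% of UMIs in mural cells and 0.426% in microglia. For complex III the shares were 0.259% and 0.118%, for complex IV 0.741% and 0.311%, and for complex V 0.635% and 0.275%. Complex II, which is also an enzyme of the citric acid cycle, gave 0.106% in mural cells but was low in 2 classes: 0.0565% ± 0.00350 in microglia and 0.0569% ± 0.00823 in neurons, which were the higher of the pair in 7 of 13 libraries. The makeup of the members' own UMIs varied less than their sum. Complex I took from 35.6% of member UMIs in mural cells to 40.0% in oligodendrocyte precursors. Neurons had the smallest parts from complex II (3.20% ± 0.307), complex III (8.40% ± 0.377) and complex V (20.9% ± 1.40), and the largest from complex IV (28.3% ± 1.62). Microglia had the largest part from complex II (4.78% ± 0.470), endothelial cells the largest from complex III (10.7% ± 0.449) and astrocytes the largest from complex V (23.9% ± 0.417). In cells led by the markers of their own class, neurons still had the smallest parts from complexes III (8.08%) and V (21.0%), but the largest from complex IV was that of mural cells (27.9%, neurons 26.9%), the smallest from complex II that of endothelial cells (3.25%, neurons 3.32%) and the part from complex I was 40.8% in neurons. Assembly factors and other members outside the complexes' structure gave 0.115% of UMIs in mural cells, 0.0760% in endothelial cells and 0.0487% in oligodendrocytes. Ndufa4l2, which is also counted with complex IV, is in this set and alone had 448 CPM in mural cells.

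**Figure D2:**
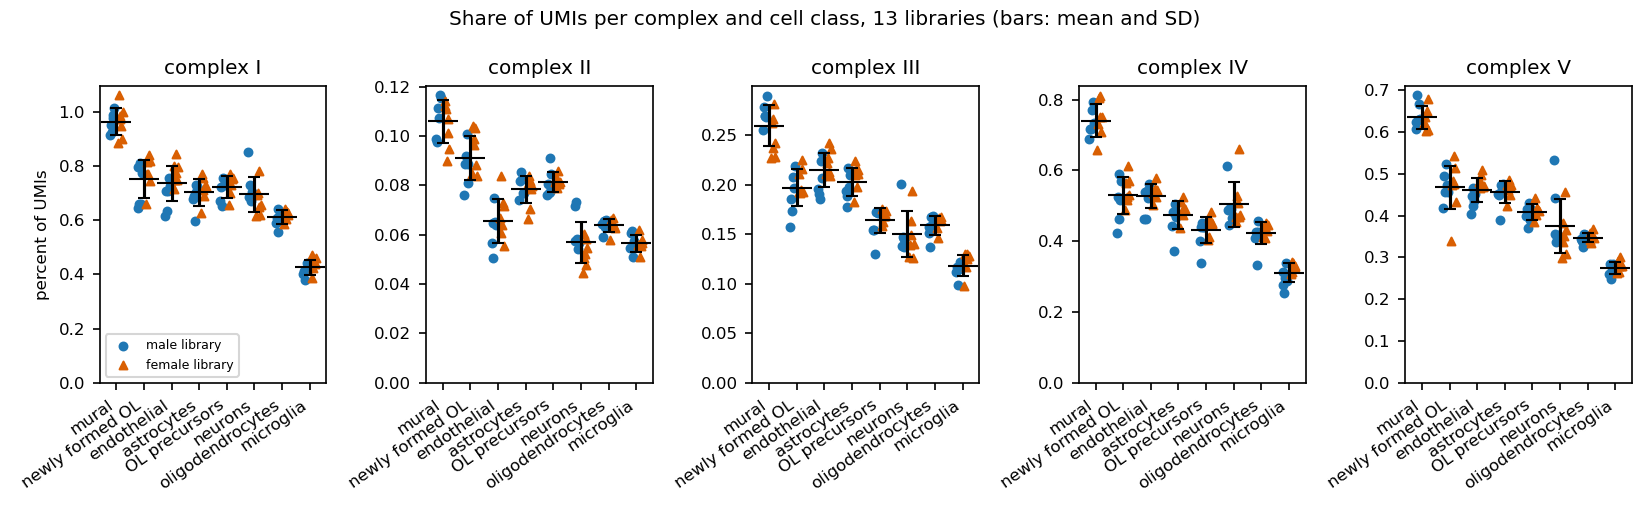
Share of UMIs (percent, vertical axes) from the members of each of the 5 complexes by class, with 1 point per library and the mean with its SD. Mural cells are highest in every panel, and neurons lie beside microglia in complex II (0.0569% and 0.0565%) but not in the other panels.

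Gene by gene, the mean level was highest in mural cells for 50 of the 94 members and lowest in microglia for 63. Newly formed oligodendrocytes were highest for 11, endothelial cells for 9, neurons for 8, precursors for 7, astrocytes for 6, microglia for 2 and oligodendrocytes for 1. In 6 members the class with the highest mean lay above all libraries of all other classes: Cox4i2, Cox6c, Cox8a, Ndufa4l2 and Sdhc in mural cells and Ndufc2 in neurons. Below all other libraries lay 7 members, and all were microglial: Atp5b, Cox5b, Ndufa5, Ndufa11, Ndufb6, Ndufb9 and Ndufv2. These counts were not made for all genes of the table, so they are not read as results about the members alone. Each class was then compared with the mean of the other 7 classes on a log2 scale, with the library as a block (edgeR quasi-likelihood test, Benjamini-Hochberg adjusted p under 0.05 over 12200 genes, of which 88 are members). The authors drew the classes from the same counts, so these p-values describe how far the classes as drawn lie apart against the spread between libraries. Most genes of the table differ between classes this way, and the counts of members are read against that share. For class counts under other settings that share is not given, so a changed count there is not a result about the members alone.

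**Figure D3:**
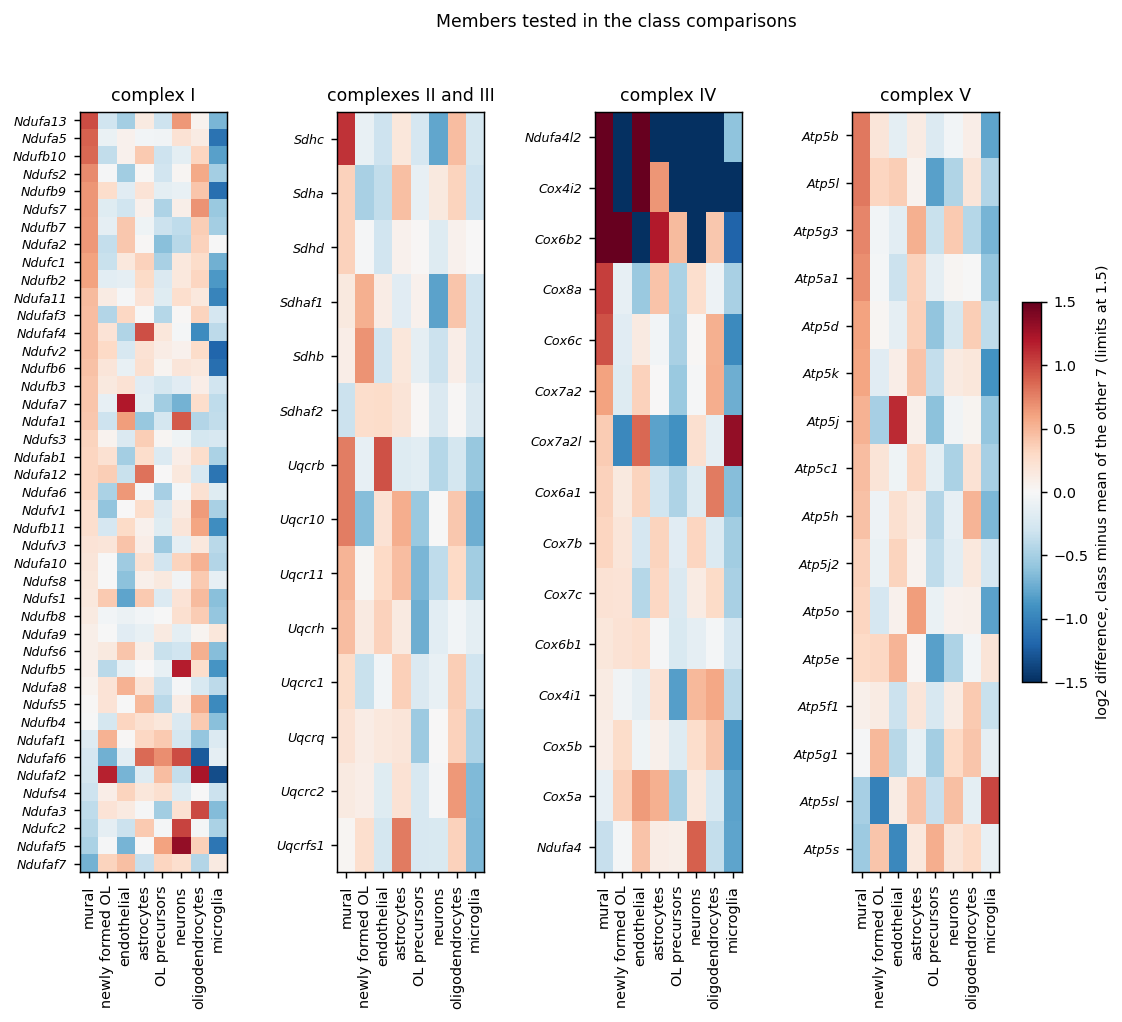
Log2 difference of each tested member (88, grouped by complex) between a class and the mean of the other 7 classes, for 8 classes, colored from lower to higher. The column of microglia is low nearly throughout with Cox7a2l as the exception, the column of mural cells is mostly high, and Cox4i2 and Ndufa4l2 stand out in mural and endothelial cells.

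In mural cells 56 members were higher and 6 lower, where 54.9% of all genes passed (23.1% higher, 31.8% lower). The median log2 difference of the members was 0.33, beside -0.22 for all genes tested. In the 318 mural cells of 1000 to 2000 UMIs alone 29 were higher and 3 lower, and 31 members passed in the same direction there and in all mural cells. In all mural cells, each complex had more members higher than lower: 24 against 4 in complex I, 3 against 0 in complex II, 6 against 0 in complex III, 11 against 1 in complex IV and 12 against 1 in complex V. Of the 13 tested assembly factors and other members, counted across complexes, 4 were higher and 2 lower (median log2 -0.25). Cox8a, a small subunit of complex IV, had 898 CPM in the lowest mural library, a median of 1058 and 1348 in the highest, while no library of another class passed 857. Its log2 difference was 1.04 ± 0.052 (SE, edgeR adjusted p = 1.62e-43). Sdhc, a membrane anchor of complex II, ran from 258 to 421 CPM with a median of 320 in mural cells, and the other classes together averaged 133 (log2 1.08 ± 0.079, edgeR adjusted p = 1.75e-27). Cox6c, another small subunit of complex IV, had a mean of 1007 ± 150 CPM (670 to 1204), and the mean of the next class, endothelial cells, was 568 ± 81.1. Atp5b, the catalytic beta subunit of ATP synthase, stood at 1012 ± 112 CPM against 306 ± 22.3 in microglia. Lower in mural cells were the assembly factor Ndufaf7 (log2 -0.71), Atp5sl (-0.50), the accessory subunits Ndufc2 (-0.41) and Ndufa3 (-0.38), and Ndufa4 (-0.34, 425 against 498 CPM). Cells led by markers of leptomeningeal fibroblasts made up 108 of the 764 mural cells, and the members gave 1.97% of their UMIs against 2.84% in the 646 cells led by mural markers. In mural-led cells alone the mean over libraries was 2.85%.

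In microglia 73 members were lower and 4 higher, where 75.7% of all genes passed (37.1% higher, 38.6% lower). Their median log2 difference was -0.51, beside -0.10 for all genes. Lower were 37 of 43 members of complex I, 4 of 6 of complex II, all 8 of complex III, 12 of 15 tested of complex IV and 12 of 16 tested of complex V. Ndufv2, a core iron-sulfur subunit of complex I, ran from 49.9 to 106 CPM with a median of 83.7, below every library of the other classes (mean 228 CPM, log2 -1.19 ± 0.069, edgeR adjusted p = 6.83e-37). The accessory subunits Ndufb6 (74.4 against 187 CPM, log2 -1.13) and Ndufb9 (107 against 269, log2 -1.13) did the same. Ndufaf2, a chaperone of complex I assembly, had 29.0 CPM against 91.3 (log2 -1.33). Cox7a2l, which helps to join complexes III and IV into supercomplexes and is known in a shortened form in C57BL/6 mice, went the other way, with 251 CPM in the lowest microglial library, a median of 311 and 341 in the highest. The mean of the other classes was 152 CPM (log2 1.32 ± 0.056, edgeR adjusted p = 8.21e-53), although endothelial cells (270 ± 53.8) and mural cells (223 ± 56.6) overlapped microglia. Atp5sl, a paralog of the coupling factor gene Atp5s and not a subunit of complex V, was higher too (53.5 against 30.3 CPM, log2 1.01). The other 2 rested on scaling: Atp5e (log2 0.19) had 219 CPM against 226, and Ndufa9 (0.17) had 98.9 against 101 and turned to -0.01 with no scaling factor.

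Endothelial cells had 34 members higher and 31 lower, where 68.2% of all genes passed (28.7% higher, 39.5% lower), with a median of 0.00 beside -0.23 for all genes. In cells of 1000 to 2000 UMIs 32 were higher and 6 lower. Atp5j, coupling factor 6 of ATP synthase, stood at 743 ± 74.0 CPM (657 to 865), with only mural cells near it (569 ± 101), and the log2 difference was 1.12 ± 0.049 (edgeR adjusted p = 2.08e-50). Ndufa7, an accessory subunit of complex I, had 524 ± 98.5 CPM (lowest 352, median 553, highest 692) against 223 in the other classes (log2 1.20 ± 0.059, edgeR adjusted p = 6.42e-45). Uqcrb, a small subunit of complex III, had 414 against 216 CPM (log2 0.96). Lower were Ndufs1, the largest core subunit of the NADH-oxidising arm (60.4 against 99.7 CPM, log2 -0.79), Ndufs8 (112 against 167, log2 -0.61), Ndufaf2 (49.2 against 88.4, log2 -0.70), Atp5s (13.8 against 26.8, log2 -0.97) and Cox6b2 (log2 -2.18). Blood cell markers ran from 0 to 75859 CPM over the endothelial libraries, and 49 of the 1463 cells were led by them. The members gave 1.51% of UMIs in those 49 cells and 2.06% in the 1407 led by endothelial markers.

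In neurons the members were split, with 31 higher and 30 lower where 77% of all genes passed (41.9% higher, 35.1% lower), and a median of 0.00 beside 0.01 for all genes. With no scaling factor the split was 19 higher and 41 lower, and with DESeq2 it was 50 and 17. Ndufc2, an accessory subunit of complex I, ran from 427 to 638 CPM in neurons with a median of 526, and the highest library of any other class had 421 (log2 1.01 ± 0.046, edgeR adjusted p = 1.98e-49). Ndufb5, another accessory subunit, had 312 ± 33.9 CPM against 155 (log2 1.18 ± 0.050, edgeR adjusted p = 1.53e-52). Ndufa1, an X-linked accessory subunit needed for assembly, had 245 against 148 CPM (log2 0.92), and the assembly factors Ndufaf5 (31.0 against 14.2 CPM, log2 1.31) and Ndufaf6 (20.9 against 12.9, log2 0.98) were higher as well. Ndufa4 was highest of all classes in neurons, 742 ± 50.6 CPM (659 to 801). Sdhc was lowest there, 85.2 ± 21.1 CPM (50.4 to 116.5), against 167 in the other classes (log2 -0.78 ± 0.066, edgeR adjusted p = 4.87e-23). Counting it, 5 of the 6 members of complex II were lower and 5 of the 8 of complex III, while 18 members of complex I were higher and 11 lower. Other members lower in neurons were Cox6b2 (log2 -1.83), the complex II assembly factor Sdhaf1 (-0.80), Ndufa7 (-0.70) and Atp5c1, the rotor subunit gamma of ATP synthase (-0.47, 297 against 455 CPM).

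The neuron class held cells that went against its name, and they moved with the members. Neuronal markers led in 3199 of the 3615 cells. In the other 416 another list led or tied: 297 cells were led by astrocyte markers, 74 by oligodendrocyte markers, 21 were ties and the rest were led by other lists. The members gave 3.43% ± 0.529 of UMIs in these cells and 1.60% ± 0.211 in the neuron-led cells, with no overlap between the libraries of the 2 sets except male replicate 3, whose 3 such cells gave 1.96%. Ribosomal protein transcripts took 3.84% and 1.01%. The cells made up 1.26 to 27.4% of the neurons of a library, the highest in male replicate 1, which also had the highest member share of all neuron libraries (2.27%) and, at 2.11%, of the neuron-led cells. Neuron-led cells alone stood at the level of oligodendrocytes (1.60%). With cells led by their own markers only, 20 members were higher in neurons instead of 31. What these cells are was not tested.

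**Figure D4:**
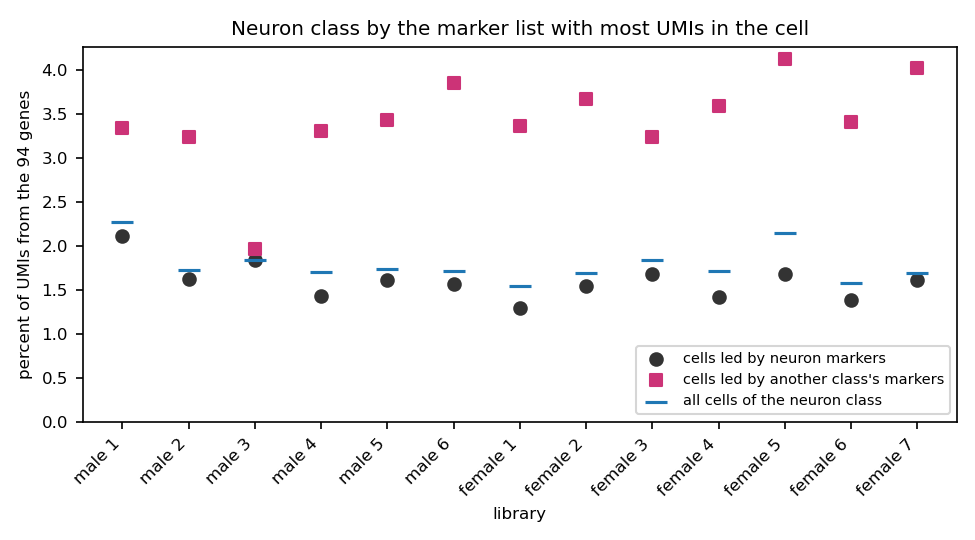
Share of UMIs from the members (percent, vertical axis) per library in the neuron class, for cells led by neuronal markers and for cells led by another list or tied. The first set has a mean of 1.60% and the other a mean of 3.43%, and male replicate 1 is the highest of the neuron-led values at 2.11%.

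Astrocytes, which clear glutamate and supply neurons with metabolites, had 51 members higher and 8 lower, where 70.6% of all genes passed (36.7% higher, 33.9% lower), with a median of 0.17 beside -0.04. With no scaling factor the split was 41 and 14. Of complex III 7 of 8 members were higher and of complex V 10 of 16 tested, with 0 lower in complex V. Ndufaf4, an assembly factor of complex I, ran from 108.5 to 174 CPM with a median of 131 (log2 0.96 ± 0.064, edgeR adjusted p = 2.93e-31). Ndufa12, an accessory subunit whose place Ndufaf2 holds during assembly, had 259 against 166 CPM (log2 0.81), and Uqcrfs1, the Rieske iron-sulfur protein of complex III, 242 against 152 (log2 0.78). Lower were Cox7a2l (90.3 against 183 CPM, log2 -0.80), Ndufa1 (101 against 168, log2 -0.57), Ndufaf7 (-0.35), Cox6a1 (-0.30) and Ndufaf2 (-0.19), which turned to 0.35 when only cells with 1000 to 2000 UMIs were used.

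In the oligodendrocyte lineage the balance of higher and lower members depended on how the classes were scaled, and the stages were not tested against each other. Precursors had 13 members higher and 61 lower, where 69.6% of all genes passed (44.1% higher, 25.4% lower), but 36 higher and 24 lower with no scaling factor. Oligodendrocytes had 55 higher and 14 lower, where 73.1% of all genes passed (37.7% higher, 35.4% lower), but 10 and 48 with no scaling factor, 31 and 35 with DESeq2 and 6 and 30 in cells of 1000 to 2000 UMIs. Newly formed oligodendrocytes had 26 and 27, where 59.1% of all genes passed (29.2% higher, 29.9% lower), but 51 and 10 with no scaling factor. Myelin transcripts fill much of an oligodendrocyte library, with the 10 markers of that class at 127275 CPM, and the fitted scaling factor of the class was 0.764 against 1.20 in precursors. Taking the factors out moved the median of all genes from -0.05 to -0.49 in oligodendrocytes and from 0.12 to 0.43 in precursors, and less in the other classes (-0.10 to -0.27 in microglia, -0.22 to -0.02 in mural cells, -0.06 to 0.15 in newly formed oligodendrocytes, 0.01 to -0.10 in neurons). Ndufaf2 passed as higher in all 3 classes, with 117 CPM in precursors (log2 0.47), 168 ± 41.5 CPM in newly formed oligodendrocytes (log2 1.16) and 117 ± 18.4 in oligodendrocytes (log2 1.23), against 29.0 in microglia. Sdhb, the iron-sulfur subunit of complex II, was highest in newly formed oligodendrocytes, 376 ± 63.4 CPM (273 to 460) against 210 in the other classes (log2 0.67, edgeR adjusted p = 2.96e-18). Ndufa3 (314 against 220 CPM, log2 0.99) and Cox6a1 (668 against 551, log2 0.78) passed as higher in oligodendrocytes, although the level of Cox6a1 was above 668 CPM in mural cells (762), endothelial cells (700) and newly formed oligodendrocytes (677), and its log2 difference was 0.33 with no scaling factor. Ndufaf4 fell there to 33.9 ± 6.24 CPM against 91.4 (log2 -0.94, edgeR adjusted p = 2.06e-21). In precursors Cox4i1 was low (601 against 878 CPM, log2 -0.83), as were Atp5e (-0.82), Uqcrh (-0.74) and Cox7a2l (-0.91), and Ndufaf6 (0.69), Ndufaf5 (0.61) and Atp5s (0.54) were high. Smim15 overlaps Ndufaf2 on the other strand and ran from 43.3 CPM in neurons to 190 in oligodendrocytes, and no source used here says whether the counting used strand, so reads of the pair cannot be told apart.

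Isoforms within the families separated the classes more sharply than the complexes did. The share of a member in its family's UMIs does not depend on scaling between classes, and no test was run on it. Ndufa4l2, a paralog of Ndufa4 that hypoxia induces in many cells, made up 50.6% ± 10.5 of the Ndufa4 family in mural cells (28.4 to 68.9% over libraries, 773 of 1488 UMIs), and 76.3% in the fewer cells of 1000 to 2000 UMIs. Its level there was 448 ± 141 CPM, 206 in the lowest library, 426 at the median and 760 in the highest, and its log2 difference was 8.85 ± 0.147 (edgeR adjusted p = 1.17e-102). Endothelial cells had 4.87% of the family from it (32.2 ± 16.5 CPM), and in the other 6 classes 0 to 8 UMIs were counted. Newly formed oligodendrocytes had 0 of 1325 family UMIs, which allows a share of up to 0.226%. Cox4i2, the form of subunit 4 that is known from lung and from oxygen-sensing cells, followed the same classes. It took 20.3% ± 6.46 of its family in mural cells (8.00 to 31.9%, 437 of 2109 UMIs), at 257 ± 85.9 CPM (118 to 428, log2 7.78 ± 0.173, edgeR adjusted p = 1.52e-85). Endothelial cells had 2.36% (72 of 2629 UMIs, 19.3 ± 10.9 CPM), astrocytes 0.289% (38 UMIs), and the other classes 0 to 5 UMIs. Mural markers summed to 34049 CPM in mural cells and 2325 CPM in endothelial cells, where all 10 were detected. Their part in the endothelial values of Ndufa4l2 and Cox4i2 was not tested. The 49 endothelial cells led by blood cell markers had 130 CPM of Ndufa4l2 (29 UMIs) and 71.6 CPM of Cox4i2 (16 UMIs). The 1407 led by endothelial markers had 26.2 CPM (78 UMIs) and 18.8 CPM (56 UMIs). The 2 members also passed as higher in endothelial cells (log2 4.63 and 3.81), and Cox4i2 in astrocytes (0.67 at 2.55 CPM), since a mean of logs over classes near 0 is low. In astrocytes that difference turned to -0.10 in cells of 1000 to 2000 UMIs and to -0.30 with limma voom. Within the mural class both followed the mural markers: the 646 mural-led cells had 537 CPM of Ndufa4l2 and 308 CPM of Cox4i2, and the 108 led by leptomeningeal markers had 48.5 CPM (12 UMIs) and 0 UMIs. Shmt2 overlaps Ndufa4l2 on the other strand, at 9.65 to 30.7 CPM over the classes with 29.0 in mural cells.

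**Figure D5:**
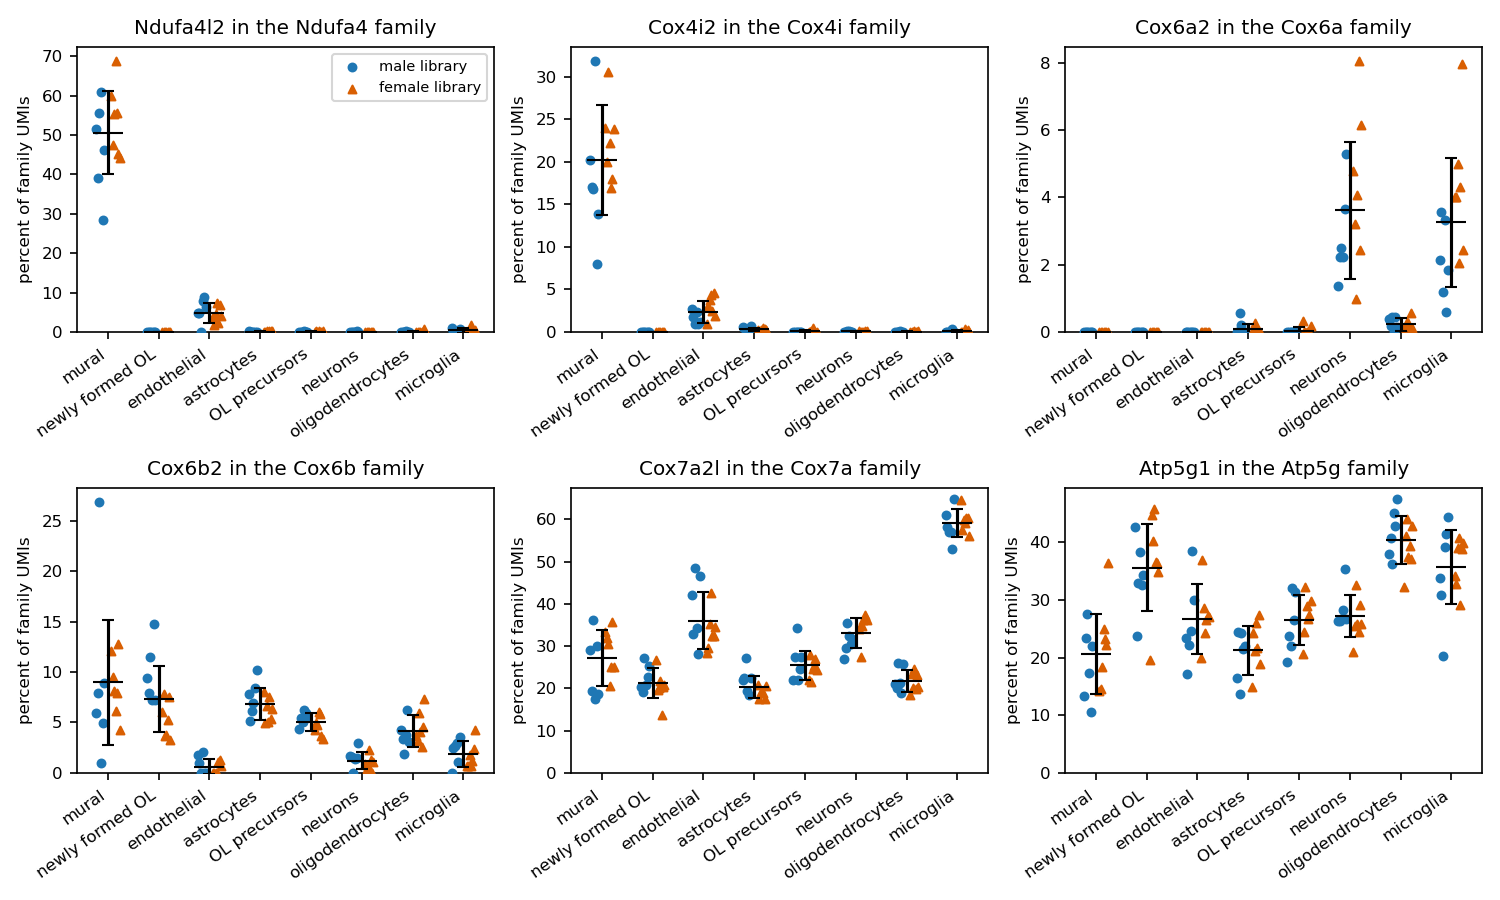
Share of a family's UMIs (percent, vertical axes) that came from the named isoform, by class, with 1 point per library and the mean with its SD. Ndufa4l2 (50.6%) and Cox4i2 (20.3%) rise in mural cells, Cox7a2l (59.1%) in microglia, and Cox6a2 in neurons (3.61%) and microglia (3.26%).

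The other families gave smaller contrasts. Cox6a2, the heart and muscle form of subunit 6a, was found in neurons (3.61% ± 2.03 of the family, 0.968 to 8.06% over libraries, 183 of 5278 UMIs) and in microglia (3.26% ± 1.92, 0.585 to 7.96%, 96 of 2671 UMIs). Both ranges stayed above 0 in all 13 libraries. Oligodendrocytes had 0.225%, and endothelial and mural cells had 0 of 2237 and 0 of 1286 family UMIs, which allow shares of up to 0.134% and 0.233%. Itgad overlaps Cox6a2 on the other strand, and its level was 63.1 CPM in oligodendrocytes, 0.166 in neurons and 0.544 in microglia. Cox6b2, known as the testis form of subunit 6b, gave 8.98% ± 6.25 of its family in mural cells (73 of 944 UMIs), 7.34% ± 3.24 in newly formed oligodendrocytes, 6.81% ± 1.57 in astrocytes (417 of 5980 UMIs) and 5.05% ± 0.926 in precursors, but 1.21% ± 0.852 in neurons and 0.599% ± 0.755 in endothelial cells. Its mural range, 1.02 to 26.9%, overlapped those of all the other classes, and the mean was 19.8% in cells of 1000 to 2000 UMIs. Of the 73 mural UMIs, 18 came from the 108 cells led by leptomeningeal markers (72.8 CPM, beside 114 UMIs of Cox6b1). The 646 mural-led cells gave 55 (38.9 CPM, beside 746 UMIs of Cox6b1). Cox7a2l took 59.1% ± 3.28 of the Cox7a family in microglia (52.9 to 64.8%), above every library of every other class, with 36.0% ± 6.77 in endothelial cells and 20.4% ± 2.66 in astrocytes. The muscle form Cox7a1 stayed at or under 1.27% in all classes. Of the rare forms, Cox8b had 35 of its 37 UMIs and Cox7b2 54 of its 89 in astrocytes. The c ring of ATP synthase is built from one peptide that 3 genes encode with different import signals, and their balance moved too. Atp5g1 made up 40.4% ± 4.17 of the family in oligodendrocytes (32.3 to 47.6%) and 35.8% ± 6.48 in microglia, against 21.3% ± 4.25 in astrocytes and 20.6% ± 6.96 in mural cells, where Atp5g3 gave nearly all of the rest. Atp5g2 was rare, with 50 UMIs in all.

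Other lists of the pathway were counted in the same comparisons. All genes passed as higher and as lower at 23.1% and 31.8% in mural cells, 37.1% and 38.6% in microglia, 44.1% and 25.4% in precursors, 36.7% and 33.9% in astrocytes, 41.9% and 35.1% in neurons and 28.7% and 39.5% in endothelial cells. Of 11 other parts of the machinery (such as cytochrome c and the inhibitor Atpif1), 9 were higher and 0 lower in mural cells, 2 higher and 7 lower in microglia, and 0 higher and 9 lower in precursors, where no scaling factor gave 2 and 3. Chchd10, an intermembrane space protein, had 514 CPM in astrocytes (log2 4.16), 264 in neurons (3.08) and 16.7 in microglia (-1.37). Assembly factors outside the symbol rule (30 tested) had 3 higher and 5 lower in mural cells, 4 and 15 in microglia and 11 and 5 in neurons, and with no scaling factor 6 and 4, 2 and 18, and 11 and 8. Of 20 genes of the citric acid cycle and pyruvate dehydrogenase, 18 were higher and 0 lower in astrocytes, 15 and 1 in mural cells, 4 and 14 in microglia and 2 and 13 in endothelial cells. Citrate synthase (Cs) had 431 CPM in astrocytes against 137 in the other classes. Of 11 carriers and outer membrane channels, 1 was higher and 9 lower in endothelial cells, 3 and 7 in microglia, 8 and 3 in neurons, 8 and 1 in astrocytes and 5 and 2 in mural cells. Slc25a4, the ADP/ATP carrier, had 270 CPM in microglia and 1554 in mural cells. Among 11 regulators of mitochondrial biogenesis, 6 were higher and 2 lower in microglia, 2 and 6 in neurons, 4 and 3 in astrocytes and 4 and 0 in mural cells. With no scaling factor these counts were 4 and 3, 2 and 7, 3 and 3, and 7 and 0. Of this list, the coactivator Ppargc1a had 169 CPM in astrocytes (log2 4.64) and 1.80 in microglia (-2.57), and its relative Ppargc1b 69.0 in mural cells (3.98). Glycolysis and lactate genes (23) had 17 higher and 4 lower in neurons, 15 and 4 in astrocytes, 7 and 7 in mural cells and 7 and 13 in microglia. In microglia Hk2, a hexokinase, stood at 249 CPM against 2.03 (log2 7.40) and the lactate transporter Slc16a3 at 34.0 against 3.23.

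Male and female libraries were compared within each class, and since the labels do not tie libraries to animals the p-values measure only the spread between libraries, which may be technical. In 7 classes 0 members passed (edgeR adjusted p under 0.05), where 0.0623% of all genes passed in neurons, 1.16% in astrocytes, 0.131% in precursors, 0.0889% in newly formed oligodendrocytes, 0.261% in oligodendrocytes, 0.349% in microglia and 0.123% in mural cells. At an unadjusted p under 0.05 there were 6 of 86 tested members in neurons (6.98%, all genes 6.24%), 10 of 86 in astrocytes (11.6%, all genes 10.4%), 4 of 86 in precursors (4.65%, all genes 6.08%), 3 of 78 in newly formed oligodendrocytes (3.85%, all genes 180 of 4497), 3 of 85 in oligodendrocytes (3.53%, all genes 7.79%), 7 of 82 in microglia (8.54%, all genes 7.29%), 8 of 79 in endothelial cells (10.1%, all genes 11.2%) and 4 of 78 in mural cells (5.13%, all genes 6.53%). In endothelial cells 1 of 79 members passed, where 1.28% of all genes did. This was Ndufa7, lower in males: 446 ± 78.7 CPM (352 to 582) in 6 male libraries and 591 ± 54.9 (513 to 692) in 7 female libraries (log2 -0.41 ± 0.113, edgeR adjusted p = 0.0444). All 6 males lay below the female median and all 7 females above the male median, but the ranges overlapped. The call did not hold with no scaling factor, with no filter on low counts, in cells of 1000 to 2000 UMIs, with doublets kept or with the replicate number as a block, nor when any library other than male replicate 5 or female replicate 1 was left out. With libraries of 9 weeks only, 4 male and 6 female, the difference of Ndufa7 was -0.47 (edgeR adjusted p = 0.0103), and Ndufc1 in endothelial cells and Cox6b1 in microglia passed as well, both lower in males. In that setting 2 of 81 members and 105 of 5456 genes passed in endothelial cells, and 1 of 83 members and 31 of 7938 genes in microglia. The members gave 1.91% ± 0.128 of endothelial UMIs in males (1.74 to 2.03%) and 2.09% ± 0.0878 in females (1.97 to 2.25%), and in microglia 1.14% ± 0.0676 and 1.22% ± 0.0603. In neurons the shares were 1.83% ± 0.220 and 1.74% ± 0.204. All 3 pairs of ranges overlapped.

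The sex difference in neurons was also compared with its mean over the other 7 classes in 1 model. Of 90 members tested 1 passed, where 0.0303% of 13187 genes did. Cox5a, a subunit of complex IV, had a log2 difference of differences of 0.51 (edgeR adjusted p = 0.0315). In neurons it stood at 251 ± 61.6 CPM in males (177 to 345) and 190 ± 26.4 in females (152 to 216), a log2 difference of 0.37 ± 0.137 that did not pass in neurons alone (edgeR adjusted p = 0.684). In the other classes its difference ran from -0.23 to 0.00. Most members pointed the same way, 76 of 90 above 0 with a median of 0.16, where 48.9% of all genes were above 0 with a median of -0.01. In cells of 1000 to 2000 UMIs 47 of 79 members were above 0, with a median of 0.05 (all genes 3347 of 6780). At an unadjusted edgeR p under 0.05 there were 18 of 90 members (20%, all genes 8.30%). In cells of 1000 to 2000 UMIs there were 2 of 79 (all genes 393 of 6780). Within neurons 57 of 86 members were higher in males, but 18 of 65 at 1000 to 2000 UMIs (all genes 1207 of 2495). Mural cells had 46 of 78 higher in males, endothelial cells 12 of 79, microglia 17 of 82 and astrocytes 23 of 86. Precursors had 25 of 86, newly formed oligodendrocytes 22 of 78 and oligodendrocytes 24 of 85. Of all genes, 49.1% to 51.1% were higher in males within a class. The members were measured in the same libraries, so they do not count as independent of each other. Cells of the neuron class that other markers led made up 10.7% of neurons in males and 13.7% in females. With cells led by their own markers only, the value of Cox5a was 0.60 (edgeR adjusted p = 0.000821). It did not pass with limma voom (0.45, adjusted p = 0.145), in cells of 1000 to 2000 UMIs (0.34, edgeR adjusted p = 0.960) or with libraries of 9 weeks only (0.45, edgeR adjusted p = 0.226), nor when male replicate 1 or 3 or female replicate 1, 2, 4, 6 or 7 was left out.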

How the data were processed

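The deposited table holds raw UMI counts per gene and cell, made by the authors with STAR 2.5.0a and bcl2fastq 2.17.1.14 (build mm10), per the submitters' processing notes. The annotation, the collapsing of UMIs and the strand used in counting are not given in the sources used here. Each cell name carries a library, matched to the sample titles, and a class of the authors.

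Cells under 500 genes and the doublets that Scrublet marked (scanpy 1.11.5, python 3.11.15) were left out. Counts were summed per library and class, with at least 10 cells each. Sums were tested with edgeR 4.0.16 in R 4.3.3 (quasi-likelihood, TMM factors, filterByExpr, robust fit, Benjamini-Hochberg over all genes tested, threshold 0.05). A share is given over all UMIs of a class in a library, a CPM per 1000000 of them without TMM factors. Alternatives were DESeq2 1.42.0, limma 3.58.1 voom, no TMM factors, other filters, other cells, other denominators and leaving out each library. Where 0 of n UMIs were counted, the limit given is 3 counts of n, which covers counting error only.

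The members, roles, marker lists and pathway lists were chosen with earlier results of these data known. Named were all detected family isoforms, the most abundant member of each complex, up to 5 members per class and direction with the largest difference past the threshold and at least 20 CPM, every member past a sex test, and up to 3 genes per list and class. Of the members, 27 overlap another gene of the table, and their reads may be shared. Other genes named for overlap on the genome were chosen after their values were seen. The test scripts were checked on simulated counts. They recovered 37% of 1.5-fold and 83% of 2-fold changes in mural cells against the other classes. For male minus female in neurons they recovered 18% and 87%, and for the difference between classes 3% and 55%. Most simulated 1.5-fold sex differences were thus missed.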

Additional observations from a re-analysis of the deposited data

Results flagged for a closer look

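In neurons, male replicate 1 gave 2.27% of its UMIs to the nuclear oxidative phosphorylation genes, while the other 5 male libraries lay between 1.71 and 1.84%. Its distance to the nearest library took 0.764 of the range of the 6 males, which is above the limit of Dixon's test for a group of that size. It was the only outlying value among 20 groups examined, where chance gives about 1 in 20.

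The sex difference of Cox5a in neurons differed from the mean of its differences in the other 7 classes by 0.51 on the log2 scale (male minus female, edgeR adjusted p = 0.0315). The call was lost in the settings named with the result, and 1 of 90 members tested passed.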

How the results depend on the processing

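Over all alternatives, values of a share, ratio or count stayed close to the one reported in 882 cases and moved in 104. The differences of the members named in a class or sex comparison kept their direction and side of the threshold in 1685 cases, were no longer past it in 67 and reversed in 4. Over all members, those past the threshold in opposite directions numbered 17 in oligodendrocytes and 11 in precursors with no scaling factor, 7 in oligodendrocytes and 2 each in neurons and astrocytes in cells of 1000 to 2000 UMIs, 3 in oligodendrocytes with DESeq2 and 1 in neurons in own-marker cells. The cause of these changes was not tested.

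Without the 50 most abundant genes of each class in the denominator, the shares were 2.22% in neurons, 2.69% in astrocytes and 2.16% in precursors. They were 2.58% in newly formed oligodendrocytes, 2.40% in oligodendrocytes, 1.64% in microglia, 2.57% in endothelial cells and 3.53% in mural cells. The complex I ratio of mural cells to microglia was then 2.15, and 2.27 with all genes in the denominator. Mural cells and microglia kept their places, but oligodendrocytes lay above neurons and precursors, and astrocytes above newly formed oligodendrocytes and endothelial cells. In cells of 1000 to 2000 UMIs the shares were 1.72% in astrocytes, 1.58% in precursors, 1.43% in oligodendrocytes, 1.11% in microglia and 2.37% in mural cells, the ratios of mural cells to microglia 1.69 for complex II, 1.94 for complex III and 2.13 for complex V, and the isoform shares 76.3% for Ndufa4l2, 30.3% for Cox4i2 and 19.8% for Cox6b2 in mural cells and 55.3% for Cox7a2l in microglia. Newly formed oligodendrocytes had too few such cells. The mural share was 2.85% in cells led by their own markers (chosen after seeing the data), 2.52% as a mean over cells and 2.59% for structural subunits alone.

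The class counts of members that follow are given without the share of all genes that passed in the same setting. For counts of members, the depth window gave 12 lower in neurons, 4 lower in astrocytes, 2 higher and 40 lower in precursors, 6 higher and 30 lower in oligodendrocytes, 6 lower in endothelial cells and 29 higher and 3 lower in mural cells. With no scaling factor there were 19 higher in neurons, 14 lower in astrocytes, 36 higher and 24 lower in precursors, 51 and 10 in newly formed oligodendrocytes, 10 and 48 in oligodendrocytes, 2 higher in microglia and 3 lower in mural cells. Own-marker cells gave 20 higher in neurons and 4 lower in astrocytes. DESeq2 gave 50 higher and 17 lower in neurons, 5 lower in astrocytes and 31 and 35 in oligodendrocytes. With doublets kept there were 17 lower in neurons, 8 higher in precursors and 14 higher in newly formed oligodendrocytes. With no filter on low counts 4 were lower in astrocytes and 10 in mural cells, with no filter on detected genes 5 were lower in astrocytes, and with limma voom 10 were lower in mural cells. Leaving out 1 library gave 17 to 31 lower in neurons (17 without male replicate 2, female replicate 1 or female replicate 4), 5 to 8 lower in astrocytes (5 without male replicate 2 or female replicate 1, 5 or 7), 8 to 14 higher in precursors (8 without male replicate 2) and 12 to 29 higher in newly formed oligodendrocytes (12 to 14 without male replicate 2 or 3 or female replicate 1 or 4).

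The sex comparison of endothelial cells gave 0 members with no scaling factor (all genes 60 of 5169). It also gave 0 with no filter on low counts (89 of 15139), in the depth window (15 of 1383) and with doublets kept (62 of 5269). Over the left-out libraries 0 to 2 members passed. The adjusted p of Ndufa7 was 0.0169 with DESeq2 and 0.290 in the depth window (edgeR). With libraries of 9 weeks only (edgeR) it was lower than both. In microglia 0 to 2 members passed, with 2 only without male replicate 5. With libraries of mice of 9 weeks only, a choice made after seeing the data, 2 passed in endothelial cells (all genes 105 of 5456), 1 in microglia (all genes 31 of 7938) and 0 in the difference between classes. For the difference between classes, 0 passed in the depth window (all genes 0 of 6780) and with limma voom (all genes 13 of 13187). In own-marker cells 2 passed (all genes 23 of 13100), and with DESeq2 3 did (all genes 45 of 13187). Over the left-out libraries 0 to 2 passed. For left-out libraries the share of all genes is not given, so those counts are not a result about the members alone. Among the named members the reversed values were those of Cox4i2 in astrocytes (-0.10 in the depth window, -0.30 with limma voom), Ndufaf2 in astrocytes (0.35 in the depth window) and Ndufa9 in microglia (-0.0068 with no scaling factor).

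Replicate numbers were not used to pair the libraries in the main sex comparison, and the labels do not say whether they mark pairs. Male and female libraries of the same number correlated at -0.115 to 0.177 over the classes, and 0 to 2 of 6 pairs passed 0.1, with 1 to 4 of 6 males closest to the female of their own number. With the replicate number as a block, 1 member passed in microglia (all genes 33 of 7265) and 0 in endothelial cells (all genes 46 of 4746).

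Depth limits the rare isoforms, since mural cells gave only 1488 UMIs of the Ndufa4 family and 944 of the Cox6b family.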

Other observations

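The tested members with the NRF-1 motif in their promoter window (21) and those without it (53) had these median log2 differences from the other classes. In microglia they were -0.64 with it and -0.47 without it, in neurons -0.03 and 0.09, in precursors -0.31 and -0.22, in newly formed oligodendrocytes -0.02 and 0.10 and in oligodendrocytes 0.23 and 0.26. In astrocytes they were 0.22 and 0.13, in endothelial cells 0.07 and -0.06 and in mural cells 0.35 and 0.26. For the ETS motif (19 with it, 55 without it) the medians were -0.29 and -0.56 in microglia, -0.19 and 0.12 in neurons, -0.32 and -0.22 in precursors, 0.14 and -0.01 in newly formed oligodendrocytes, 0.10 and 0.27 in oligodendrocytes, 0.13 and 0.18 in astrocytes, 0.24 and -0.04 in endothelial cells and 0.35 and 0.32 in mural cells. No test was made on these medians.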
